A study of Mus musculus with 6 samples.

Results

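Transcripts of 10 genes for secreted growth and repair factors, Hgf, Vegfa, Areg, Csf1, Csf2, Tgfb1, Igf1, Pdgfa, Pdgfb and Hbegf, were followed in mouse bone marrow-derived basophils (BMBAs) given interleukin-3 (IL-3). They are 10 of the 37043 gene symbols in the deposited count table, and 9 of them were among the 16675 genes with enough reads to be tested. The genes were chosen by name, partly because Hgf rose strongly in these same libraries. Their differences between IL-3 and PBS are therefore given as a description and carry no p-value.

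All 6 libraries came from C57BL/6J WT bone marrow grown for 7 days at 0.3 ng/mL of a factor that the methods name as IL-3, from which CD49b-bearing cells were taken with antibody-coated beads. In 3 libraries the BMBAs then received PBS, and in 3 libraries IL-3 at 10 ng/mL, in each case for 6 h. The cells of both groups had thus already met IL-3, and the bead step enriches basophils without excluding other CD49b-bearing cells. The 3 libraries of a group were separate cultures of a single experiment, so that the spread between them is a spread between cultures, and the age and sex of the mice are not given in the sources used here.

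Basophils are rare granulocytes that are best known for IgE-triggered mediator release and for secreting IL-4, and IL-3 is a main factor for their growth and activation. Growth factors act by binding receptors on nearby cells: HGF binds MET, the EGF-family ligands AREG and HB-EGF bind EGFR, and CSF1 binds CSF1R. Several of them are made as precursors or membrane-bound forms that a protease has to cut before the ligand can act at a distance.

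Of the 9 members tested, 5 were called higher in IL-3 (Hgf, Areg, Csf1, Tgfb1 and Hbegf), 3 were called lower (Vegfa, Igf1 and Pdgfb), and Pdgfa was not called. A gene was called when its adjusted p in the fit across all tested genes was below 0.05 (edgeR's quasi-likelihood test, Benjamini-Hochberg adjustment). Of all tested genes, 38.2% were called, 18.0% as higher and 20.2% as lower, and no meaning is read from the members' own share because this contrast served to choose them. The median log2 fold change was 0.63 over the 9 tested members and -0.003 over all tested genes. The tenth member, Csf2, had too few reads for the test.

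Levels are given as CPM, read counts scaled to the size of the library. The summed level of the 10 members was 999.9, 1045 and 1038 CPM in the PBS libraries and 2347, 2305 and 2232 CPM in the IL-3 libraries. Hgf and Tgfb1 made up most of the rise. The share of the members' summed level that Hgf held went from 11.2% to 11.9% in PBS to between 38.7% and 39.5% in IL-3, while that of Tgfb1 went from between 56.5% and 59.6% to between 39.6% and 42%. Csf1 held between 13.6% and 15.8% in the 6 libraries.

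**Figure D1:**
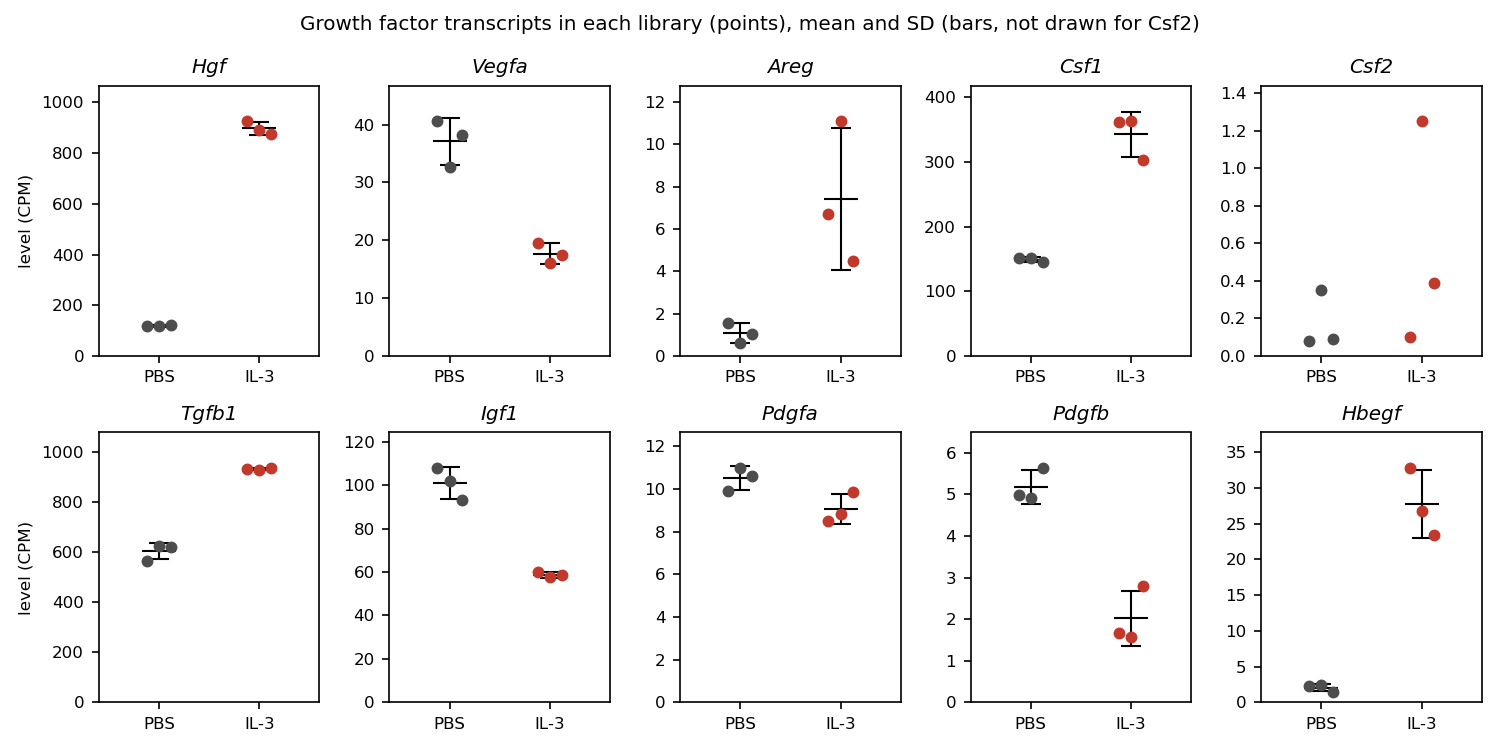
Level of each member in CPM (linear axis from 0, a separate scale for each gene) in the 3 PBS libraries (grey) and the 3 IL-3 libraries (red), with mean and SD as bars except for Csf2. The groups overlap for Csf2 alone, the IL-3 points lie above for Hgf, Areg, Csf1, Tgfb1 and Hbegf, and they lie below for Vegfa, Igf1, Pdgfa and Pdgfb.

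Hgf encodes hepatocyte growth factor, the ligand of the receptor tyrosine kinase MET and a factor for epithelial growth, movement and repair (chr5:16553495-16620152, GRCm38, plus strand). Its level was 117, 117 and 123 CPM in the PBS libraries and 926, 891 and 876 CPM in the IL-3 libraries. The groups lay far apart and each was tight, at 119 ± 3.84 CPM (SD, n = 3) in PBS and 898 ± 25.8 CPM (SD, n = 3) in IL-3, a 7.55-fold difference. On the log2 scale the fitted difference was 2.92 with a standard error of 0.052, the 72nd highest of the 16675 tested genes. The gene's coefficient of variation between replicates beyond counting noise was 5.06%, where the median tested gene had 10.1%. The members nearest to Hgf in CPM had similar coefficients, 5.21% for Tgfb1, 5.71% for Igf1 and 6.38% for Csf1. Of the 50-base stretches in the annotated Hgf transcripts, 6.02% also occur in transcripts of another gene, mostly in Gm43489. Gm43489 and Gm42975, gene models that the annotation classes as TEC, lie over Hgf on the same strand and have no row in the count table.

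The colony-stimulating factors differed widely in level. Csf1 (chr3:107741048-107760469, minus strand) encodes the factor that keeps macrophages alive through CSF1R. It stood at 151, 151 and 145 CPM in PBS and at 362, 363 and 303 CPM in IL-3. Every IL-3 library was above every PBS library, with IL-3 replicate 3 the nearest to the PBS group. The group means were 149 ± 3.23 and 343 ± 34.6 CPM (SD, n = 3 each), 2.3-fold apart, and the fitted log2 difference was 1.20 (SE 0.068). Csf2 (chr11:54247271-54249667, minus strand) encodes GM-CSF, whose receptor shares its signalling chain with that of IL-3. It had 1, 4 and 1 reads in the PBS libraries and 1, 15 and 5 reads in the IL-3 libraries. The groups overlapped, and 1 library, IL-3 replicate 2, held most of the reads. The summed 21 reads in IL-3 against 6 in PBS are a ratio of 3.5, with an exact 95% interval of 1.36 to 10.6 that covers counting error only. Without IL-3 replicate 2 the IL-3 sum was 6 reads, from 2 libraries against the 3 of PBS.

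Of the EGF-family ligands, Hbegf and Areg were scarce in PBS. Hbegf encodes heparin-binding EGF-like growth factor, which is shed from the cell surface and acts on EGFR and ERBB4. Its level was 2.29, 2.37 and 1.5 CPM in PBS against 32.8, 26.8 and 23.4 CPM in IL-3. The lowest IL-3 library was far above the highest PBS library, the means of 2.05 ± 0.482 and 27.7 ± 4.74 CPM (SD, n = 3 each) were 13.5-fold apart, and the fitted log2 difference of 3.74 (SE 0.19) was the 34th highest of all tested genes. Areg (chr5:91139599-91148432, plus strand) encodes amphiregulin, an EGFR ligand known for its part in tissue repair at barrier surfaces. It was at 1.55, 0.614 and 1.06 CPM in PBS, from 19, 7 and 12 reads, and at 6.71, 11.1 and 4.5 CPM in IL-3, from 68, 133 and 58 reads. The groups did not overlap, but the IL-3 libraries were spread widely, and the gene varied more between replicates than any other tested member, with a coefficient of 24.2%. The means were 1.08 ± 0.471 and 7.43 ± 3.35 CPM (SD, n = 3 each), and the fitted log2 difference of 2.76 (SE 0.37) moved between 2.35 without IL-3 replicate 2 and 3.13 without PBS replicate 1.

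Tgfb1 (chr7:25687002-25705077, plus strand) encodes TGF-beta 1, which is secreted in a latent complex and restrains immune cells while driving matrix deposition. Its level was 565, 623 and 619 CPM in PBS against 929, 927 and 936 CPM in IL-3. The IL-3 libraries were nearly equal and all above PBS. The means of 602 ± 32.2 and 931 ± 4.81 CPM (SD, n = 3 each) were 1.55-fold apart, a fitted log2 difference of 0.63 (SE 0.048).

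Vegfa, Igf1 and Pdgfb were lower in every IL-3 library than in any PBS library. Vegfa (chr17:46016993-46032369, minus strand) encodes the main growth factor of blood vessel endothelium. It stood at 40.6, 32.6 and 38.2 CPM in PBS and at 19.6, 16 and 17.4 CPM in IL-3, means of 37.1 ± 4.09 and 17.7 ± 1.85 CPM (SD, n = 3 each). PBS was 2.1-fold higher, a fitted log2 difference of -1.08 (SE 0.11) for IL-3 over PBS. Igf1 (chr10:87858265-87937042, plus strand) encodes insulin-like growth factor 1, a hormone-like factor that macrophages also make in tissue. Its level of 108, 102 and 93 CPM in PBS compared with 60, 57.5 and 58.4 CPM in IL-3, with means of 101 ± 7.65 and 58.7 ± 1.26 CPM (SD, n = 3 each) and a fitted log2 difference of -0.79 (SE 0.069). The IL-3 libraries lay closely together here, while the PBS libraries spread more.

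Pdgfa (chr5:138976014-138997370, minus strand) and Pdgfb (chr15:79995874-80014977, minus strand) encode the chains that pair to form platelet-derived growth factors for mesenchymal cells. Pdgfb was at 4.99, 4.91 and 5.64 CPM in PBS and at 1.68, 1.58 and 2.79 CPM in IL-3. PBS was 2.57-fold higher, with means of 5.18 ± 0.399 and 2.02 ± 0.673 CPM (SD, n = 3 each) and a fitted log2 difference of -1.34 (SE 0.25) that ran from -1.66 without IL-3 replicate 3 to -1.19 without IL-3 replicate 2. Pdgfa was at 9.9, 11 and 10.6 CPM in PBS and at 8.49, 8.83 and 9.85 CPM in IL-3. The highest IL-3 library lay just under the lowest PBS library, and the fitted log2 difference of -0.21 (SE 0.14) was not called. In all, 5 of the 10 members had every IL-3 library above PBS and 4 had every IL-3 library below. Of all tested genes, 48.2% had groups that did not overlap, 23.8% with IL-3 above and 24.4% with IL-3 below.

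**Figure D2:**
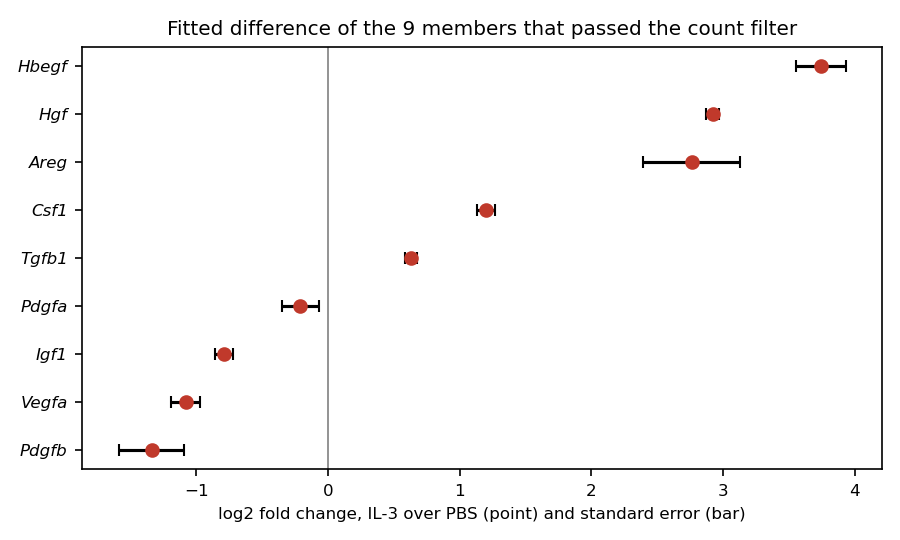
Fitted log2 fold change of IL-3 over PBS (horizontal axis, points) with its standard error (bars) for the 9 members that passed the count filter, 3 libraries in each group. Hbegf (3.74), Hgf (2.92) and Areg (2.76) lie farthest to the right, and Pdgfb (-1.34) and Vegfa (-1.08) farthest to the left.

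Levels of different genes can be compared only per length, so CPM was divided by the length in kb of each gene's longest annotated transcript. In PBS, Tgfb1 led at 234 ± 12.5 CPM per kb (SD, n = 3). Csf1 (34.8 to 36.3 CPM per kb) and Hgf (33.7 to 35.6 CPM per kb) followed with ranges that overlapped. Igf1 at 14.3, Vegfa at 10.8, Pdgfa at 5.09 and Pdgfb at 1.76 CPM per kb came next with separate ranges. Areg at 0.885 and Hbegf at 0.71 CPM per kb overlapped, and Csf2 was last at 0.217 CPM per kb.

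In IL-3 the order was different. Tgfb1 at 362 ± 1.87 CPM per kb was followed by Hgf at 259 ± 7.44 and Csf1 at 82.1 ± 8.27 CPM per kb (SD, n = 3 each), with no overlap among these. Hbegf (8.11 to 11.3 CPM per kb) moved from place 9 to place 4, where its range overlapped those of Igf1 (8.16 to 8.51) and Areg (3.7 to 9.12). The ranges of Vegfa (4.63 to 5.69) and Pdgfa (4.12 to 4.78) overlapped each other and that of Areg. Csf2 (0.123 to 1.56) and Pdgfb (0.537 to 0.948) overlapped at the bottom.

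Set against the 16217 tested genes with a length, Hgf exceeded 88.8% of genes in PBS and 98.5% in IL-3. Hbegf went from above 13.2% to above 66.5% of genes, and Areg from above 16.5% to above 56.1%. Tgfb1 was already above 98.5% of genes in PBS. The order depends on the length used: with each gene's median transcript length, Igf1 took place 2 and Hgf place 4 in PBS, while Tgfb1, Hgf and Csf1 still led in IL-3. Hbegf then took place 6 in IL-3, at 11.7 CPM per kb, below Igf1 at 42.9 and Vegfa at 20.2 CPM per kb.

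**Figure D3:**
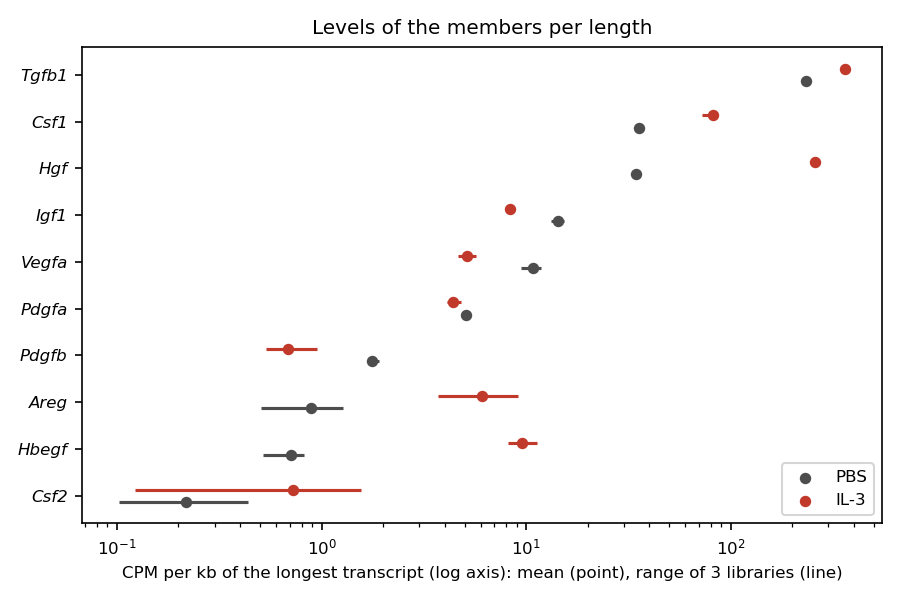
Level of each member in CPM per kb of its longest transcript (horizontal log axis), as the mean (point) and the range of 3 libraries (line), for PBS (grey) and IL-3 (red), ordered by the PBS mean. Tgfb1 is highest in both groups (234 and 362 CPM per kb), Hgf is near Csf1 in PBS and above it in IL-3, and Hbegf passes Pdgfa, Vegfa and Igf1 by its mean, the latter pair not when the median transcript length is used.

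The start of a gene is where transcription factors are commonly recruited, so the 250 bases before the annotated starts were searched for 4 motifs. RefSeq start-site windows (build GRCm38.p6) were at hand for 8 of the 10 members, 11 windows in all. Their sequences are given for Hgf and Csf1, the most abundant of the members that more than doubled, and for Areg, which holds a match. Each is written 5′ to 3′ on the gene's strand in lower case, with the letters of a match in capitals.
Hgf, chr5:16553245-16553494, plus strand: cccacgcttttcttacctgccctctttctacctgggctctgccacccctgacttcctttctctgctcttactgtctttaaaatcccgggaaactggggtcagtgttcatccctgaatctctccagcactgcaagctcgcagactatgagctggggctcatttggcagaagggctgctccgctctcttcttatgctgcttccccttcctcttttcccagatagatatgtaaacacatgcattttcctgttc
Csf1, chr3:107760470-107760719, minus strand: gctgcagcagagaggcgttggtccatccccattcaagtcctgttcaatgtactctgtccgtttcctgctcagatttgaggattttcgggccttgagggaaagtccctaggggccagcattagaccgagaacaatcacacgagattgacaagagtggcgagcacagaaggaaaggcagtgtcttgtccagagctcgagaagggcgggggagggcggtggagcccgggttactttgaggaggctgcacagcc
Areg, chr5:91139349-91139598, plus strand: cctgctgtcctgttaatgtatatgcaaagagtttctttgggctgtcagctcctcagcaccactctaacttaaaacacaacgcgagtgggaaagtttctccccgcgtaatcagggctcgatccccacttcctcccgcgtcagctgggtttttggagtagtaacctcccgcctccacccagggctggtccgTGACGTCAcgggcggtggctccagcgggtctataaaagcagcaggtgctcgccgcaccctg

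The motifs were that of STAT factors, TTCNNNGAA, the cAMP response element TGACGTCA, the AP-1 site TGANTCA and the core of the hypoxia response element, ACGTG, each read on both strands. They occur in 7.02%, 1.55%, 6.75% and 16.6% of the 32851 RefSeq windows of this length, in that order. The capitals in the Areg window are a match to the cAMP response element at position -61 from the start. Igf1 had 1 match to the AP-1 motif at position -37, and the second of the Vegfa windows had 1 match to ACGTG at position -211. No window held more than 1 match, so no matches overlapped. The windows of Hgf, Csf1, Tgfb1, Pdgfa and Csf2 held none of these letters, which says nothing about the factors elsewhere. STAT5, which binds the first of these motifs, is activated by the IL-3 receptor, and none of the 11 windows held that motif.

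To see which other genes had a profile like that of Hgf, log2(CPM + 0.5) values of each of 11647 genes with at least 5 CPM in a group were set relative to their PBS mean, and the Euclidean distance to Hgf was taken over the 6 libraries. The 5 nearest were Furin (distance 0.178), Slc7a5 (0.188), Ccl6 (0.233), Upp1 (0.256) and Adora2b (0.277). Furin encodes a protease of the secretory pathway that cuts many precursor proteins, Slc7a5 an amino acid transporter, Ccl6 a chemokine, Upp1 a uridine phosphorylase and Adora2b an adenosine receptor. Their levels spanned a wide range, from 126 ± 5.22 CPM for Upp1 to 17646 ± 1065 CPM for Ccl6 (SD, n = 3) in IL-3, with folds of 7.15 for Adora2b to 7.93 for Ccl6. The genes nearest to Csf1 were Ppa1 (0.13), Ets1 (0.13), Tuba8 (0.14), Rasa2 (0.149) and Brwd1 (0.153), with folds between 2.23 for Ets1 and 2.38 for Brwd1. These genes were picked for their likeness, so no test is given.

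The genes next to the members on the chromosome were compared as well. Of the 20 nearest neighbours, 9 passed the count filter, and 1 of these, Rpl3 beside Pdgfb, was called, with a log2 fold change of -0.33. Across all tested genes, 38.2% were called. B9d2 beside Tgfb1 (log2 fold change 0.00), Ahcyl1 beside Csf1 (-0.07), Mrps18a beside Vegfa (-0.09) and Pfdn1 beside Hbegf (0.16) were not called. With libraries scaled by their totals, Ahcyl1 (-0.23) and Mrps18a (-0.25) were called lower. The EGF-family genes Ereg and Btc lie on either side of Areg. Btc had a log2 fold change of -0.27 and was not called, and Ereg, below the filter, was at 2.45, 0.175 and 0.176 CPM in PBS and at 0, 0 and 0.31 CPM in IL-3. Il3, which lies next to Csf2, had no reads in any library.

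Related genes were taken from 5 lists of 117 genes in all, of which 83 were tested, 28 called higher and 24 lower. Their adjusted p-values come from the same fit across all tested genes. The first list held 28 other growth factor ligands, of which 12 were tested, with 6 called higher, 2 lower (4 with no filter on low counts) and a median log2 fold change of 0.80. Lif, an IL-6-family cytokine, rose from 3.75 ± 0.224 to 83 ± 11 CPM (SD, n = 3; log2 fold change 4.47, SE 0.13, adjusted p = 1.99e-13). Osm, which encodes oncostatin M of the same family, rose from 126 ± 6.39 to 1631 ± 149 CPM (log2 fold change 3.69, adjusted p = 1.04e-15). Among ligands of the families that the members belong to, the ERBB ligand Nrg1 (log2 fold change 2.45, adjusted p = 1.07e-07) and the lymphatic growth factor Vegfc (1.64, adjusted p = 1.85e-06) rose, and Vegfb fell (-0.83, adjusted p = 0.00486). Fgf2 rose from a level near the filter (2.61, adjusted p = 0.000226), and its fold depended on PBS replicate 1, without which it was 3.79. Gdf15, a stress-induced factor of the TGF-beta family, fell (-1.96, adjusted p = 7.77e-08). Of the EGF family, Egf (0.61, adjusted p = 0.144) and Tgfa (0.99, adjusted p = 0.0767) did not pass, although Tgfa did without IL-3 replicate 3 (1.32, adjusted p = 0.0272), and Epgn was at 0 in every library.

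The receptor list held 24 genes, receptors of the members and their near relatives. Of these, 18 were tested, 10 were called lower, 2 higher and 6 not, and their median log2 fold change was -0.44. The shares over all tested genes were 20.2% lower and 18.0% higher. The genes called higher were Csf2rb, the beta chain that the IL-3 and GM-CSF receptors share, and Csf2rb2, the mouse beta chain specific to IL-3. Csf2rb rose from 1779 ± 35.1 to 4459 ± 113 CPM (log2 fold change 1.33, adjusted p = 2.29e-13) and Csf2rb2 from 940 ± 20.5 to 2979 ± 82 CPM (1.66, adjusted p = 3.84e-14; SD, n = 3). These are close paralogs that share 12.3% and 18.9% of their 50-base stretches with other genes, so reads may be split between them. The GM-CSF-specific chain Csf2ra fell (-0.53, adjusted p = 1.6e-06), as did the CSF1 receptor Csf1r, from 154, 146 and 144 CPM in PBS to 89.5, 86.7 and 79.4 CPM in IL-3 (-0.80, SE 0.063, adjusted p = 4.66e-08).

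Met, the receptor for HGF, was at 57.3, 53.8 and 57.5 CPM in PBS against 63.6, 58.5 and 67.5 CPM in IL-3. The IL-3 libraries were all above PBS, but by little, and the log2 fold change of 0.17 (SE 0.073, adjusted p = 0.0825) did not pass. The TGF-beta receptor chain Tgfbr2 fell (-0.73, adjusted p = 7.9e-06), and so did the accessory receptor Eng (7.37 ± 0.936 against 3.62 ± 1.17 CPM, SD, n = 3, adjusted p = 0.00233) and the type I receptor kinase Acvrl1 (-1.12, adjusted p = 0.0055). Tgfbr1 had a log2 fold change of 0.04 (adjusted p = 0.698) that turned to -0.13 when libraries were scaled by their totals. Receptors of the IGF axis fell in the case of Igf1r (-0.35, adjusted p = 0.00349) and Igf2r (-0.75, adjusted p = 1.61e-05), and Insr did not pass (-0.21, adjusted p = 0.08).

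Apart from the co-receptors Nrp1 and Nrp2, receptors for VEGF-A, PDGF and the EGF family were low or absent, at or under 7.72 CPM in every library. Kdr, the main VEGF-A receptor of endothelium, was at 1.97 ± 0.191 CPM in PBS against 0.901 ± 0.197 CPM in IL-3 (SD, n = 3; log2 fold change -1.11, adjusted p = 0.0123), a call that was lost without IL-3 replicate 1 (-0.97) and in the Wald test of DESeq2 (-1.12). Flt1 did not pass (0.05, adjusted p = 0.937), and its sign turned with the scaling and with the libraries used, up to a call as higher without PBS replicate 2 (0.86, adjusted p = 0.019). The VEGF co-receptors Nrp1 (-0.67, adjusted p = 2.62e-05) and Nrp2 (-0.55, adjusted p = 0.000383) fell, from means of 35.4 to 22.3 CPM and of 76.1 to 52.1 CPM. Egfr was at 2.51 ± 0.589 CPM in PBS against 1.96 ± 0.195 CPM in IL-3 (SD, n = 3; -0.35, adjusted p = 0.351), and Erbb3 (0.08, adjusted p = 0.846) was also not called and turned sign with the scaling. Erbb4 had no reads, which allows up to 0.233 to 0.296 CPM per library, and Erbb2, Pdgfra and Pdgfrb stayed below 1 CPM in every library and were not tested.

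Of 22 genes for proteases and other activators of growth factors, 17 were tested, 6 called higher, 3 lower (5 with libraries scaled by their totals) and 8 not, with a median log2 fold change of 0.11. Furin cuts the precursors of TGF-beta 1 and the PDGF chains among others. It stood at 237, 226 and 243 CPM in PBS and at 1745, 1906 and 1862 CPM in IL-3 (log2 fold change 2.97, SE 0.052, adjusted p = 6.07e-16), and it was also the gene nearest to Hgf in profile. Of the sheddases, which release membrane-bound ligands such as AREG and HB-EGF, Adam8 (0.83, adjusted p = 8.41e-10) and Adam10 (0.42, adjusted p = 0.000124) rose and Adam17 fell (-0.25, adjusted p = 0.00543), while Rhbdf2, a partner of ADAM17, rose (0.73, adjusted p = 4.26e-06). Adam9 (-0.08, adjusted p = 0.562) and Adam12 (-0.10, adjusted p = 0.822) did not pass. Thbs1, which encodes the TGF-beta activator thrombospondin 1, fell from 457 ± 19.5 to 144 ± 27 CPM (SD, n = 3; -1.67, adjusted p = 8.74e-10). Of the proteases that can activate pro-HGF, Plau (1.10, adjusted p = 2.33e-05) and Klkb1 (0.28, adjusted p = 0.0112) rose, Hpn fell at a low level (-1.38, adjusted p = 0.0202), and Hgfac (-0.33, adjusted p = 0.156), St14 (0.11, adjusted p = 0.479) and Plat (0.83, adjusted p = 0.129) did not pass. Klkb1 shares 42.7% of its 50-base stretches with other genes, mostly with Gm45753, so its reads may not all be its own. Klkb1 lost its call with libraries scaled by their totals (0.12) and without IL-3 replicate 3 (0.19), and Hpn without PBS replicate 1 (-1.13), IL-3 replicate 1 (-1.08) or IL-3 replicate 3 (-1.10), while without IL-3 replicate 2 it was at -2.25. Hgfac was called lower with library totals (-0.49) and without IL-3 replicate 1 (-0.55), and Plat was called higher without PBS replicate 1 (1.32). F12 was below the count filter.

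Carriers and inhibitors were divided. Of 23 such genes 17 were tested, 7 called higher (4 with libraries scaled by their totals), 6 lower and 4 not, with a median log2 fold change of -0.06. The inhibitors of HGF-activating proteases, Spint1 (1.26, adjusted p = 1.26e-08) and Spint2 (0.41, adjusted p = 0.00241), rose, the latter with its call lost when libraries were scaled by their totals (0.25, adjusted p = 0.0537). Igfbp5, a binding protein for IGF-1, rose from 0.724 ± 0.407 to 19.1 ± 4.6 CPM (SD, n = 3; 4.72, adjusted p = 2.33e-09), whereas Igfbp6 fell (-1.47, adjusted p = 0.00482). Of the heparan sulphate carriers, Sdc4 rose (2.24, adjusted p = 1.03e-09) and Sdc1 fell (-1.69, adjusted p = 4.06e-10). Lrig1, which restrains ERBB receptors, fell from a low level (-3.84, adjusted p = 0.000192). Its log2 fold change ran from -4.61 without IL-3 replicate 3 to -3.29 without IL-3 replicate 2. Lrig1 was not tested with a filter of 1 CPM in 3 libraries.

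Vegfa is a classical target of hypoxia-inducible factors, and 20 genes of that response were examined beside it. Of 19 tested, 7 were called higher, 3 lower and 9 not, with a median log2 fold change of 0.08. Hif1a itself (0.80, adjusted p = 7.04e-08), the glucose transporter Slc2a1 (1.07, adjusted p = 4.47e-09), Bnip3 (1.03, adjusted p = 5.6e-08) and the oxidoreductase Ero1l (1.22, adjusted p = 9.03e-12) rose, in the direction opposite to Vegfa. Ddit4 (-1.08, adjusted p = 5.89e-08) and Pfkfb3 (-0.53, adjusted p = 0.000272) fell. Ldha had a log2 fold change of 0.03 (adjusted p = 0.681).

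**Figure D4:**
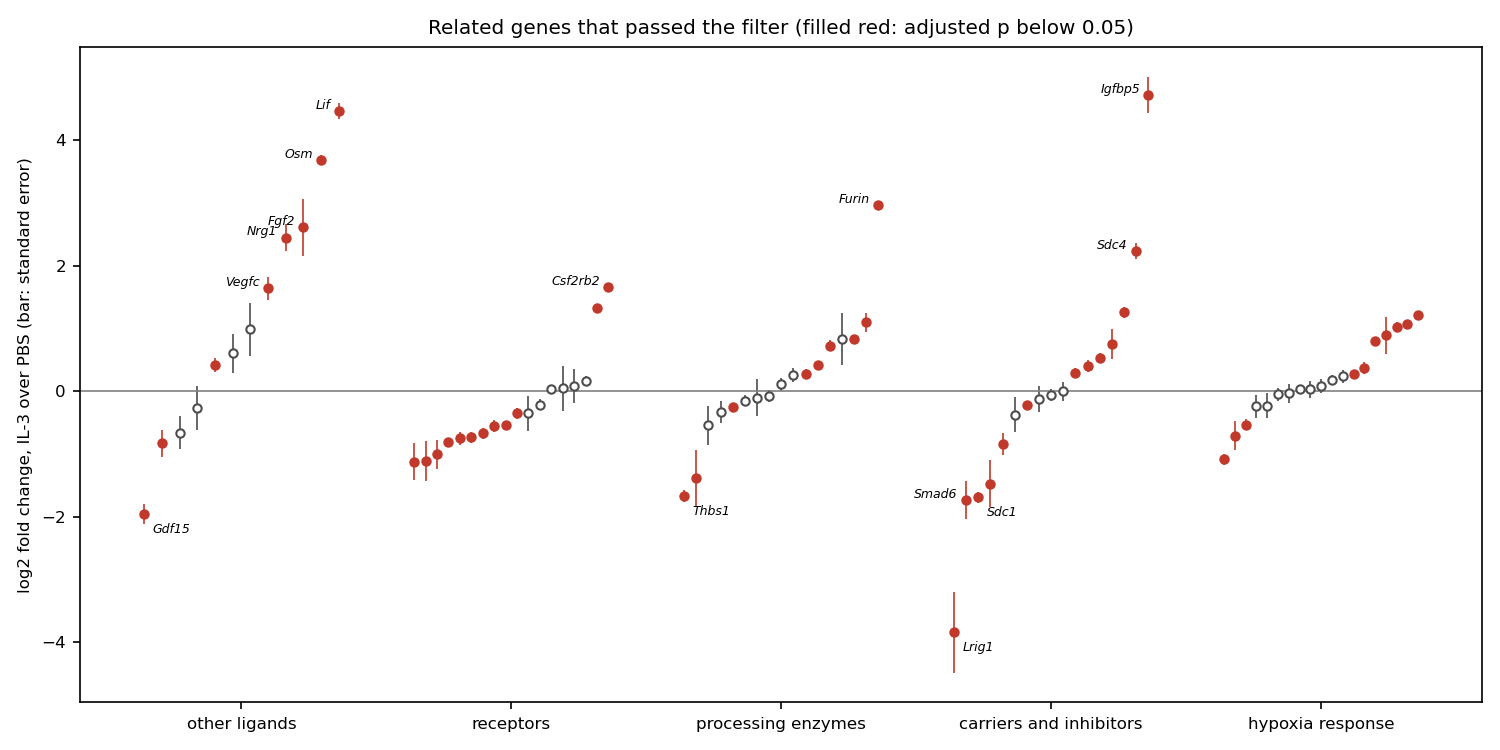
Log2 fold change of IL-3 over PBS (vertical axis, bar for the standard error) for each tested gene of the 5 related lists, filled red where the adjusted p was below 0.05 and open where it was not. Called genes with an absolute log2 fold change of at least 1.5 are named. Most of the 18 tested receptors lie below 0, Lif, Osm, Furin and Igfbp5 lie far above it, and Lrig1 lies lowest.

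Transcripts that mark other cell types were present, and some of them moved with members. In bulk libraries, fewer cells of a type and less RNA per cell cannot be told apart. All 8 markers of the labelled cell type, basophils, passed the count filter, and they summed to between 10196 and 11372 CPM in PBS and between 15329 and 15475 CPM in IL-3, with 6 called higher and 1 lower, led by Mcpt8 (log2 fold change 0.94) and Prss34 (0.01, not called). The 10 monocyte and macrophage markers summed to between 11677 and 12596 CPM in PBS and between 6120 and 6736 CPM in IL-3, most of it Lyz2 in every library, with 7 called lower and 2, Adgre1 and Ly6c2, higher. Lyz2 (-0.97), Cd68 (-1.03) and C1qb (-1.06) fell by about as much as Vegfa (-1.08), while Igf1 (-0.79) and Csf1r (-0.80) fell by less. The markers of this list ran from -1.18 for Ccr2 to 1.29 for Ly6c2, and Mrc1 (-0.16) was not called. The 5 megakaryocyte markers, which also mark platelets, a known source of PDGF, summed to between 1073 and 1745 CPM in PBS and between 591 and 1111 CPM in IL-3, with 3 called lower, Pf4 (-0.97), Ppbp (-1.37) and Gp1bb (-0.88), beside Pdgfb (-1.34). The groups overlapped for Ppbp and Gp1bb. IL-3 replicate 3 stood apart in its group, with Ppbp at 255 CPM against 64.1 and 39.8 CPM. Pf4 was at 397 CPM there against 210 and 235 CPM, and Pdgfb was also highest there among the IL-3 libraries. PBS replicate 2 stood apart likewise, with Ppbp at 438 CPM against 236 and 261 CPM. Pf4 was at 743 CPM there against 460 and 448 CPM, but Pdgfb was lowest there among the PBS libraries, at 4.91 CPM against 4.99 and 5.64 CPM. The part of these cells in the members' differences was not tested.

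PBS replicate 1 stood apart by stromal markers, whose sum was 22.7 CPM there and between 0.296 and 0.916 CPM in the IL-3 libraries. Dcn was at 11.5 CPM and Col1a1 at 6.54 CPM in that library, where Ereg was also highest, at 2.45 CPM. Hgf was at 117 CPM in this library as in PBS replicate 2, and all 8 called members were also called without PBS replicate 1, with log2 fold changes such as 3.13 for Areg and -0.74 for Igf1. Mast cell markers summed to between 397 and 453 CPM in PBS and between 691 and 783 CPM in IL-3 (3 of 7 tested called higher and 2 lower, with Mrgprb2 not tested), and their part was not tested. Neutrophil markers summed to between 79.1 and 114 CPM against 136 to 200 CPM (2 of 6 higher, 1 lower). Eosinophil markers went from between 155 and 173 CPM to between 95 and 136 CPM (1 of 5 higher, 3 lower) and T cell and ILC2 markers from between 289 and 309 CPM to between 132 and 151 CPM, nearly all of it Il7r and Rora (0 of 4 higher, 2 lower). Endothelial markers, mostly Vwf, ran from 38.4 to 73.1 CPM in PBS and from 21.9 to 53.2 CPM in IL-3 (2 tested, 0 called), erythroid markers from 101 to 220 CPM and from 54.7 to 101 CPM (0 of 4 higher, 2 lower, Alas2 at 0), and NK cell markers stayed at or under 2.5 CPM in sum, with none tested and Gzma at 0.

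**Figure D5:**
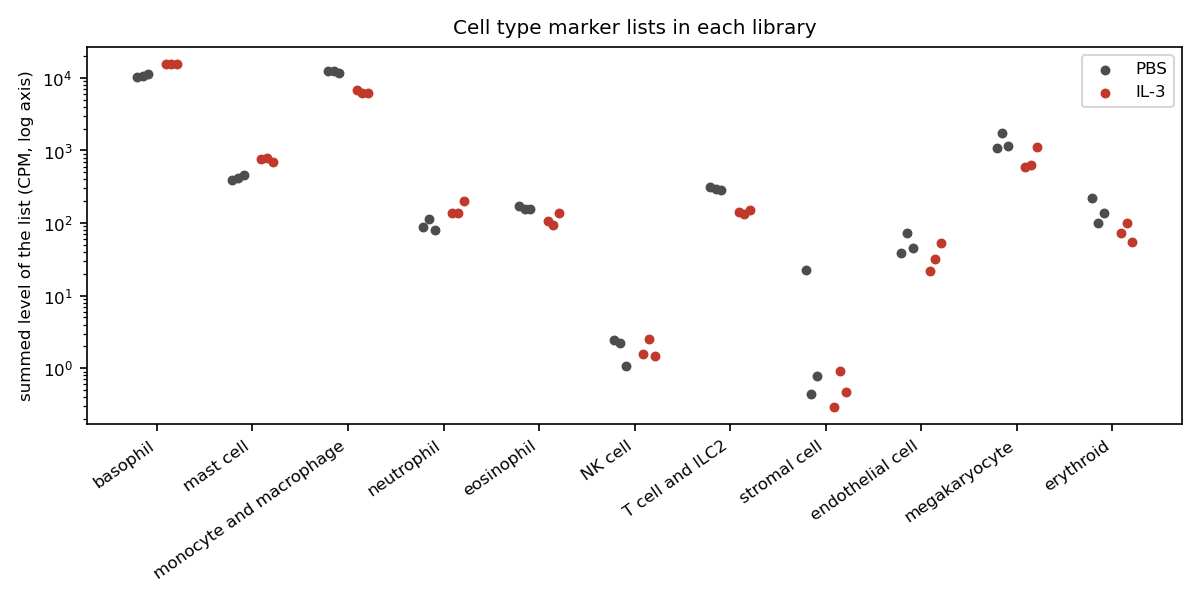
Summed level of each cell type marker list in CPM (vertical log axis) in each PBS library (grey) and IL-3 library (red). Basophil sums are higher in IL-3, monocyte and macrophage sums are lower, and the stromal sum is high in PBS replicate 1 alone (22.7 CPM).

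The 6 libraries held between 10537540 and 13999287 counted reads, so that 3 reads, the upper limit that a count of 0 allows, equalled 0.233 to 0.296 CPM. Their log2 profiles correlated at 0.985 to 0.988 within a group and 0.952 to 0.957 between groups.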

How the data were processed

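The authors deposited a table of raw read counts per gene symbol, 1 column for each of 6 libraries. Per the methods, amplified cDNA was sequenced, reads were trimmed with Cutadapt and mapped to reference RNA with Bowtie2, and reads per gene were counted. The sources used here mention no molecular identifiers. The methods name build GRCm38 and the submitters' processing notes GRCm39, and the table has no coordinates. Those printed are GENCODE M21 on GRCm38, in which 96.12% of 37043 symbols were found. The labels name a column kit for RNA and the methods direct lysis.

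Genes passing edgeR's filterByExpr (minimum count 10) were scaled by TMM and tested with glmQLFit and glmQLFTest (edgeR 4.0.16, R 4.3.3), with Benjamini-Hochberg adjustment over 16675 genes. The standard error is the log2 fold change over the root of F. On simulated data, 79.4% of 194 genes changed 2-fold were called. Alternatives used DESeq2 1.42.0, limma 3.58.1, other scalings and filters, and each library left out. Named genes are the members, their receptors, up to 6 called genes per list with the smallest adjusted p, and 5 nearest profiles. Of these lists, other genes printed (Egf, Tgfa, Vegfb, Adam9, Adam12, Adam17, Hpn, Klkb1, Plat, F12, Hgfac, St14, Spint2, Igfbp6, Epgn and Ldha), and the neighbours, were chosen after their values were seen. Members and lists were chosen with earlier results of these data known.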

Additional observations from a re-analysis of the deposited data

How the results depend on the processing

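All 8 called members kept their call and direction under the 9 other scalings, filters, fits and tools and with each of the 6 libraries left out. Pdgfa was called when libraries were scaled by their totals (log2 fold change -0.37). That scaling shifted the median of all genes by -0.16 and left 1698 genes called higher and 5030 lower, so that 25.2% of calls were higher against 47.1% with TMM scaling. Under it Flt1 was at -0.11, Erbb3 at -0.0815 and Tgfbr1 at -0.13. With 1 library left out, Flt1 ran from -0.26 to 0.86, Erbb3 from -0.0684 to 0.24 and Tgfbr1 from -0.000916 to 0.0625, and the extremes of Flt1 came without PBS replicate 3 and without PBS replicate 2, and it was called higher in the latter fit. The cause of these turns was not tested. Kdr lost its call without IL-3 replicate 1 and in DESeq2's Wald test, and Insr was called with library totals (-0.38) and without PBS replicate 2 (-0.29). A fit with a replicate block called 2842 genes higher and 3247 lower and 8 members, but replicate numbers do not pair the cultures: same-numbered libraries deviated together with correlations of -0.0087, -0.016 and -0.022. Depth limits Csf2, and Areg and Pdgfb rest on few reads.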
